A study of Mus musculus with 2 samples.

Results

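The genes described here are 9 components of the Notch pathway, the receptor genes Notch1, Notch2 and Notch3, the ligand genes Jag1, Jag2 and Dll1, the receptor-modifying enzyme gene Lfng, and the target genes Hes1 and Hey1. They were chosen by symbol, and all 9 were present among the 17492 genes of a single-cell RNA count matrix of mouse corneal epithelium. The study compared 2 groups of male C57BL/6J mice aged 20 weeks. Diabetic mice had received 1 injection of streptozotocin, a toxin that destroys the insulin-producing beta cells of the pancreas, at 160 mg/kg, and their blood glucose stayed over 250 mg/dL during a study of 12 weeks. Control mice had received only the sodium citrate buffer. Each group was 1 library from a pool of 4 corneas of 2 mice, so there is no replicate, no test between groups was possible. All intervals given are for counting error alone. As a model, the diabetes is a chemical loss of beta cells and not an inherited or diet-induced one.

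Notch receptors are cut after they bind a ligand on a neighbouring cell. The released intracellular part joins the DNA-binding protein RBPJ and switches on repressor genes of the Hes and Hey families. Fringe enzymes such as the product of Lfng add sugars to the receptor, which shifts its response between Delta-type and Jagged-type ligands. In stratified epithelia Notch signalling is known for its part in the move from the basal layer into the layers above it, and in the cornea it is known for its part in keeping the corneal epithelial fate.

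The control library held 9605 cells and the diabetic library 8203 cells, with medians of 16487 and 17677 unique molecular identifiers (UMIs) per cell. A UMI marks 1 captured RNA molecule, and PCR copies of it count as 1. The authors gave each cell 1 of 8 labels, which are Basal, Wing and Squam for the layers, LSC, TAC1, TAC2, Conj and Immune. Markers of the LSC and Squam labels were checked. The limbal gene Apoe was at 3606 and 3134 CPM, UMIs per 1000000 UMIs of the summed cells, in control and diabetic LSC cells and at 17.3 and 12.0 CPM in Squam cells. The superficial gene Psca was at 28930 and 40529 CPM in Squam cells and at 152 and 79.9 CPM in LSC cells. The whole limbal list of 5 genes summed to 17431 and 13939 CPM in LSC cells but to 27204 and 27862 CPM in Conj cells, where Krt15 alone was at 26994 and 27484 CPM against 10177 and 7937 CPM in LSC cells. Median depth by label ran from 9260 UMIs in control LSC cells to 24500 in diabetic TAC2 cells, apart from Immune cells at 2424 and 3044 UMIs. There were 18 cell barcodes that occurred in both libraries. Labels were made from the same cells, so differences between labels are a description.

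Levels are CPM, given first for control and then for diabetic cells. The assay reads molecules near their 3′ end, so no length correction was applied, and levels are compared within a gene and not between genes. Calls between the libraries follow a rule of size: a CPM ratio of at least 1.5, at least 50 UMIs over both libraries, and exact 95% Poisson intervals that lie apart. Such a call describes 2 libraries and is no test.

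Notch1, which encodes the receptor best known for driving keratinocyte differentiation (chromosome 2, 26457903 to 26516663 on GRCm38), had its highest level in LSC cells, at 112 and 133 CPM. TAC2 cells followed at 66.9 and 76.8 CPM. Basal cells stood at 58.9 and 55.4 CPM, TAC1 cells at 48.1 and 56.7, and Wing cells at 56.1 and 56.4. These are close to each other: the intervals of Basal and Wing cells overlapped in both libraries, and in diabetic cells those of TAC1 did too. Conj cells had 26.1 and 36.1 CPM. Squam cells were lowest, at 10.5 and 5.40 CPM, which is 5.63-fold (95% interval 5.06 to 6.28) and 10.3-fold (8.76 to 12.1) below Basal cells. The genes whose levels followed Notch1 most closely over 7 epithelial labels in 2 libraries were Agap3 (Pearson r 0.987 of log2(CPM + 1), 14 values), Pip4p2 (0.986) and Fem1b (0.985), as a description among 10393 genes. The 14 values share labels, libraries and depth.

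Notch2 (chromosome 3, 98013527 to 98150361) had a different layer pattern. It was lowest in TAC1 cells, at 10.9 and 10.9 CPM, and in Basal cells, at 14.6 and 12.1 CPM. Wing cells had 31.2 and 28.7 CPM, 2.14-fold (1.94 to 2.37) and 2.38-fold (2.13 to 2.66) above Basal cells. So Notch2 stood higher in Wing than in Basal cells in both libraries, by ratios whose intervals overlap. Squam cells kept 23.6 and 23.2 CPM, also above Basal cells. The highest level was that of Conj cells, at 35.4 and 38.99 CPM. LSC cells were at 35.3 and 25.0 CPM, with wide intervals from 77 and 115 UMIs. Zfp750, which encodes a factor of epidermal differentiation, had the pattern most like that of Notch2 (r 0.979, 14 values), followed by Ctsc (0.977) and Alox12 (0.974).

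Notch3 (chromosome 17, 32120820 to 32166852) was highest in Wing cells of both libraries, at 75.9 and 76.4 CPM. Basal cells had 53.9 and 59.7 CPM, so Wing cells stood 1.41-fold (1.33 to 1.49) and 1.28-fold (1.21 to 1.35) above them. TAC2 cells were at 55.97 and 55.6 CPM, TAC1 cells at 46.8 and 47.8, and Conj cells at 44.6 and 45.98. Squam cells were lowest, at 16.8 and 12.0 CPM, 4.52-fold (4.17 to 4.91) and 6.38-fold (5.74 to 7.12) below Wing cells. Of the receptors, Notch1 and Notch3 therefore dropped between Wing and Squam cells by over 4-fold, and Notch2 by 1.32-fold (1.22 to 1.43) and 1.24-fold (1.13 to 1.35). LSC cells had 56.5 and 41.9 CPM of Notch3. The syndecan gene Sdc1 (r 0.984), Cyp2j6 (0.981) and Pigx (0.981) had the patterns most like that of Notch3 over the same 14 values.

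The makeup of the receptor UMIs differed between labels accordingly. Notch1 gave 55.1% (50.3 to 59.7) and 66.5% (63.3 to 69.5) of the UMIs of the 3 receptor genes in LSC cells, but 20.6% (18.8 to 22.4) and 13.3% (11.5 to 15.3) in Squam cells. Notch2 went the other way, from 17.3% and 12.5% in LSC cells to 46.4% and 57.2% in Squam cells. Capture can differ between genes, so these shares are read between labels only. The summed receptor level was 163 and 162 CPM in Wing cells and 50.9 and 40.6 CPM in Squam cells.

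**Figure D1:**
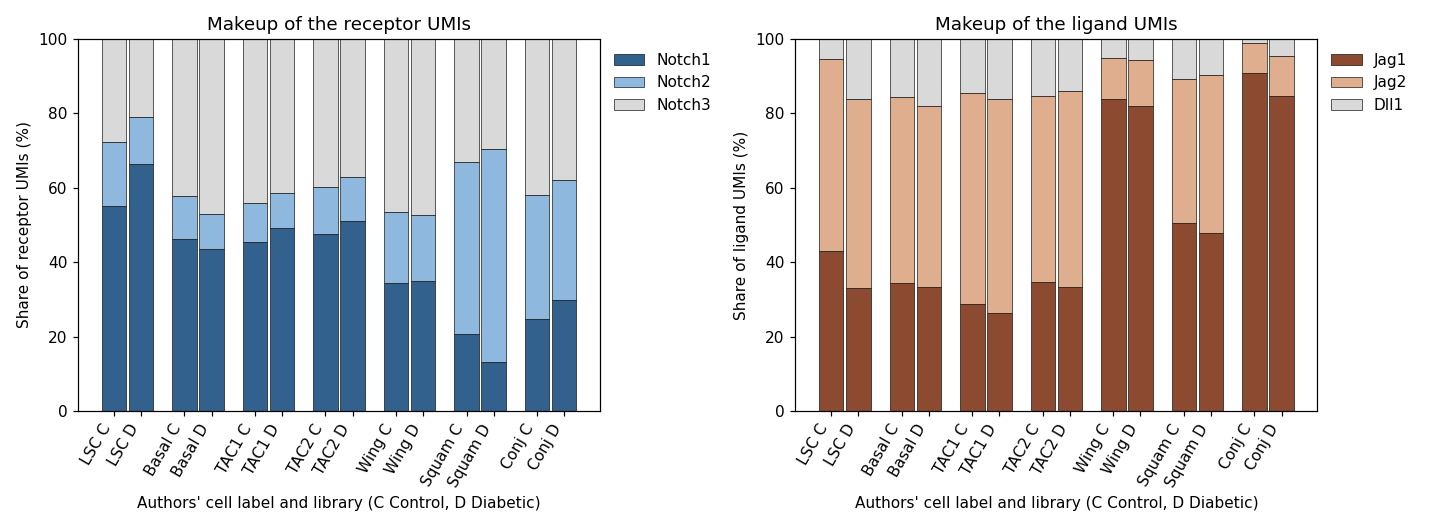
Share (%) of the UMIs of 3 receptor genes (left) and 3 ligand genes (right) that each gene gave, by label and library (C Control, D Diabetic). Notch2 takes the largest receptor share in Squam cells, and Jag1 gives 83.8% and 82.1% of the ligand UMIs in Wing cells against 34.4% and 33.2% in Basal cells.

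Among the ligands, Jag1 (chromosome 2, 137081456 to 137116644), a Jagged-type ligand, was present in the basal and the Wing compartment alike. Basal cells had 69.8 and 58.4 CPM and Wing cells 55.6 and 58.7 CPM. LSC cells were highest in both libraries, at 89.97 and 63.2 CPM, and in diabetic cells their interval overlapped that of Wing cells. TAC1 cells stood at 58.7 and 44.2 CPM, TAC2 cells at 55.3 and 46.7, and Conj cells at 34.3 and 29.8. Squam cells had 8.74 and 4.54 CPM, 6.36-fold (5.69 to 7.12) and 12.9-fold (10.9 to 15.4) below Wing cells. Jag1 thus ran with Notch1 rather than with the other ligands: across the 14 values its r with Notch1 was 0.94, and with Jag2 0.64. Squam cells were lowest for both Jag1 and Notch1, and r without them was not computed. Tmub1 (0.992), Tpp1 (0.992) and the tissue factor gene F3 (0.991) were the genes most like Jag1.

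Jag2 (chromosome 12, 112907819 to 112929776), the other Jagged-type ligand, marked the basal compartment. TAC1 cells had 116 and 97.4 CPM, LSC cells 108 and 97.1, Basal cells 102 and 85.7, and TAC2 cells 79.6 and 73.7. The first 3 of these did not differ beyond their intervals between neighbours in that order. Wing cells had 7.38 and 8.85 CPM, 13.8-fold (12.6 to 15.05) and 9.68-fold (8.78 to 10.7) below Basal cells. Squam cells had 6.72 and 4.05 CPM, and Conj cells 3.06 and 3.76 CPM from 34 and 42 UMIs. With a random draw of 5000 UMIs from each cell (thinning), Jag2 was found in 37.0% (35.0 to 38.9) and 33.6% (31.6 to 35.5) of Basal cells and in 3.07% (2.46 to 3.78) and 3.51% (2.73 to 4.44) of Wing cells.

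Dll1 (chromosome 17, 15367354 to 15376872), a Delta-type ligand, had 31.8 and 31.9 CPM in Basal cells, 29.9 and 27.0 CPM in TAC1 cells and 24.7 and 19.6 CPM in TAC2 cells. It dropped to 3.39 and 3.98 CPM in Wing cells, 9.39-fold (8.20 to 10.8) and 8.01-fold (6.90 to 9.33) below Basal cells. Squam cells had 1.87 and 0.916 CPM and Conj cells 0.450 and 1.61 CPM, the last from 5 and 18 UMIs. Lfng (chromosome 5, 140607320 to 140615545) had the same outline: 12.0 and 14.7 CPM in Basal cells, 13.4 and 14.95 in TAC1 cells, 10.2 and 12.8 in TAC2 cells and 1.10 and 1.64 in Wing cells. Its drop from Basal to Wing cells was 10.9-fold (8.59 to 13.9) and 8.95-fold (7.11 to 11.4). In Conj cells Lfng had 3 UMIs in each library.

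Jag2, Dll1 and Lfng therefore shared a pattern over labels, with r of 0.97 between Jag2 and Dll1, 0.95 between Jag2 and Lfng and 0.98 between Dll1 and Lfng (14 values, a description). Among the 10393 genes compared, the closest to Jag2 were Spon2 (0.997), the ligand gene Wnt10a (0.996) and Scmh1 (0.995). Pitpnm3 (0.992) was closest to Dll1 and Phldb1 (0.994) to Lfng, and Crip1 (0.986 and 0.987) and Stard8 (0.985 and 0.985) came next for both. Basal, TAC1, TAC2 and LSC cells together held most of their UMIs, and Basal cells alone gave 41.4% and 39.9% of those of Jag2, 43.5% and 45.5% of those of Dll1, and 41.5% and 41.6% of those of Lfng.

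Because these 3 genes moved together over labels, their promoter windows are shown, from 250 bases before to 50 bases after each RefSeq start (GRCm38.p6, gene strand, 5′ to 3′). Dll1 has 2 RefSeq starts. Capitals mark matches, on either strand, to the RBPJ core TGGGAA, the Hes N-box CACNAG and the TEAD core GGAATG; no capitals overlap here between motifs.
Jag2, chr12:112929446-112929745, minus strand: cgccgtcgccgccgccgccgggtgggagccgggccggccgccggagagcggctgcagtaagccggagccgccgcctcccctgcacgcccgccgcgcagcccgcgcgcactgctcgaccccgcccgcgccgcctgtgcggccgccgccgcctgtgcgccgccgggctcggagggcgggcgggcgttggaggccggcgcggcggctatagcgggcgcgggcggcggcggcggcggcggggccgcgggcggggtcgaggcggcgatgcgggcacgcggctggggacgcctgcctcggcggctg
Dll1, chr17:15375774-15376073, minus strand: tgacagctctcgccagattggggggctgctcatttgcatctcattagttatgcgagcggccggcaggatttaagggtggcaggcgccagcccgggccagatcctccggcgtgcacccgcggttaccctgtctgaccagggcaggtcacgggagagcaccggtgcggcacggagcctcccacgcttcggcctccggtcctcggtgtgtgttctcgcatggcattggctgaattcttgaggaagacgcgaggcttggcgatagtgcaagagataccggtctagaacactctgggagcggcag
Dll1, chr17:15376883-15377182, minus strand: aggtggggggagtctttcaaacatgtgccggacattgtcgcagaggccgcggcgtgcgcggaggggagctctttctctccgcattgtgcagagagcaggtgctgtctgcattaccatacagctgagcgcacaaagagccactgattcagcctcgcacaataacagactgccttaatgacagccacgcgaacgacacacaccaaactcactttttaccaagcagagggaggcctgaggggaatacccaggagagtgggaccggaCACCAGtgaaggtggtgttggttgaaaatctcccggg
Lfng, chr5:140607091-140607390, plus strand: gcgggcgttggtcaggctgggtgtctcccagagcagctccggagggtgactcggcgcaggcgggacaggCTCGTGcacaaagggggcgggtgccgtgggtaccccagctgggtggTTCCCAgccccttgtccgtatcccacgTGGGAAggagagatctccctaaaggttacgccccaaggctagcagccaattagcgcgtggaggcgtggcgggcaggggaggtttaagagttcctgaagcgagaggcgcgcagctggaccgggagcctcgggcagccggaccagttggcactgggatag
Lfng held the RBPJ core at 2 places, starting at positions -135 and -108 from the start site, and 1 N-box at -181. The second Dll1 window held 1 N-box at position 14, and the other windows held none of the 3 motifs. Of 32851 promoters of the same length, 25.6% held the RBPJ core, 42.5% the N-box and 14.7% the TEAD core, so a match is common. The Jag2 window was 86.0% G and C, against a median of 52.7% over all promoters. These matches are letters in a window and not measured sites.

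Hes1 (chromosome 16, 30064384 to 30067796), a repressor and a direct Notch target, was found in all epithelial labels. Wing cells had 349 and 284 CPM, Basal cells 335 and 328, TAC2 cells 294 and 283, Conj cells 272 and 262, and TAC1 cells 253 and 272. LSC cells stood at 298 and 217 CPM. Squam cells were lowest, at 117 and 98.1 CPM, 2.98-fold (2.89 to 3.07) and 2.89-fold (2.78 to 3.01) below Wing cells. The label with the highest Hes1 level differed between the libraries, Wing in control and Basal in diabetic cells, while each of the other 7 members with at least 500 UMIs had the same highest label in both. The interval of the highest label overlapped that of the next for Jag2, Dll1 and Lfng in both libraries. The same held for Notch2 in control and Jag1 in diabetic cells. Without the deepest 5% of cells of each label and library the highest label was the same in both for 5 of the 8. Over the 14 values Hes1 ran with Notch3 (r 0.97), Jag1 (0.92) and Notch1 (0.80) and not with Notch2 (-0.11). Squam cells were lowest for Hes1, Notch1, Notch3 and Jag1 in both libraries, and r without them was not computed. Diabetic LSC cells were highest for Jag1 but next to lowest for Hes1. Copg2 (0.983), Commd6 (0.971) and Ndufb10 (0.970) were the genes most like Hes1.

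Hey1 (chromosome 3, 8663359 to 8667256), the other target gene, was nearly absent. It had 4 UMIs in 4 of 9605 control cells and 0 in 8203 diabetic cells, which allows a share of up to 0.0366% of cells with a UMI. Its 4 UMIs came 1 each from LSC, TAC1, TAC2 and Wing cells. No ratio is given for it.

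**Figure D2:**
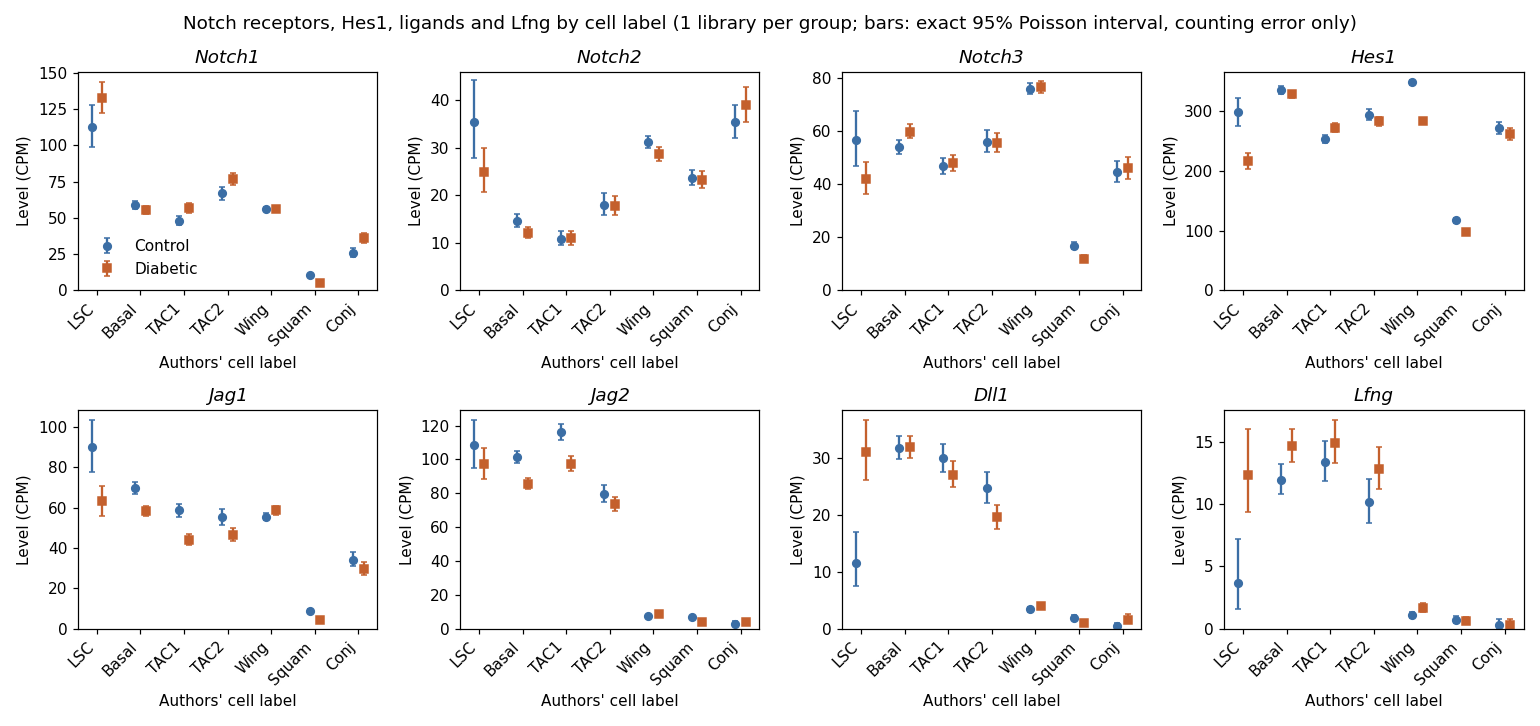
Level (CPM) of 8 members by label, for the control (circles) and diabetic library (squares), with exact 95% Poisson intervals. Jag2, Dll1 and Lfng are high in LSC, Basal, TAC1 and TAC2 cells and low from Wing cells on, apart from Dll1 and Lfng in control LSC cells (11.5 and 3.67 CPM).

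The share of cells in which a member was found gave the same outline at equal depth. At 5000 UMIs per cell, Hes1 was found in 65.5% (63.7 to 67.3) and 59.0% (56.8 to 61.3) of Wing cells and 34.5% (32.1 to 36.9) and 30.9% (28.4 to 33.5) of Squam cells. Without thinning the shares were 83.9% and 82.1% of Wing and 62.0% and 59.3% of Squam cells. Notch1 was found in 36.1% (28.9 to 43.8) and 41.0% (35.4 to 46.9) of thinned LSC cells and in 4.54% (3.56 to 5.70) and 2.83% (2.00 to 3.88) of thinned Squam cells; unthinned, in 57.4% and 61.6% of LSC and 17.3% and 8.31% of Squam cells. Free RNA adds UMIs to cells that do not express a gene. Immune cells, taken as the non-epithelial comparison, held Jag1 and Dll1 UMIs in 0 of 26 and 0 of 10 cells, which allows up to 11.5% and 30.0%, and Jag2 UMIs in 2 of 26 and 0 of 10 cells, at median depths of 2424 and 3044 UMIs. Those 2 cells held 8 Jag2 UMIs. So few and shallow cells set no background level for the unthinned Jag2 shares of 11.3% and 12.3% in Wing and 8.19% and 4.83% in Squam cells, and the part of free RNA in these shares was not tested.

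Receptor and ligand UMIs occurred in the same cells. In thinned Basal cells 44.5% and 47.1% held a UMI of a receptor gene, 59.9% and 56.6% one of a ligand gene, and 27.3% (25.5 to 29.1) and 25.9% (24.2 to 27.8) both. In Wing cells the receptor share was 53.1% and 53.2%, while the ligand share was 28.9% and 28.8%, and 16.7% (15.3 to 18.1) and 17.2% (15.5 to 18.95) held both. The product of the receptor and the ligand share is the share expected if their UMIs fell independently. It was 26.7% and 26.7% in Basal cells, within the intervals of the share with both. In Wing cells it was 15.4% and 15.3%, the latter just below its interval. In Squam cells 20.6% and 18.7% held a receptor UMI and 6.16% and 4.66% a ligand UMI. Both were held by 2.21% (1.53 to 3.07) and 1.68% (1.06 to 2.54) of Squam cells. The products there were 1.27% and 0.874%, each below its interval. Wing cells thus had receptor UMIs more often than Basal cells and ligand UMIs less often, with intervals apart in both libraries. Over all cells 18.8% and 18.6% held both, against products of 16.7% and 16.8%. These shares rise with depth, to 35.8% and 36.4% at 10000 UMIs, and are not shares of expressing cells.

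**Figure D3:**
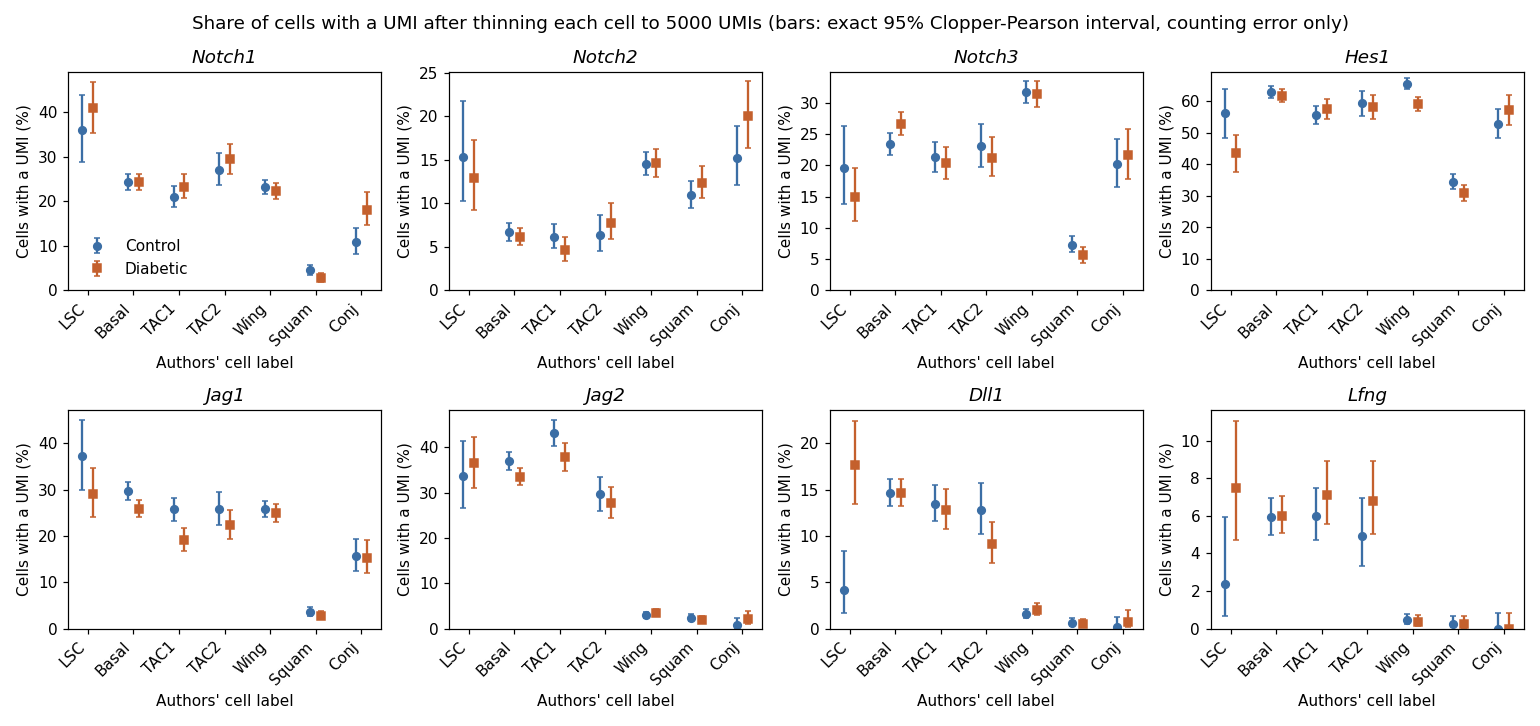
Share of cells (%) with at least 1 UMI of each of 8 members after thinning to 5000 UMIs per cell, by label, for control (circles) and diabetic cells (squares), with exact 95% Clopper-Pearson intervals. Dll1 in LSC cells is found in 4.14% of control and 17.6% of diabetic cells, with intervals apart.

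Over all cells no member passed the size rule between the libraries, of 8 with at least 50 UMIs, where 8.78% of 13846 measured genes did (5.98% higher and 2.8% lower in diabetic cells). Lfng came closest, at 4.65 and 6.96 CPM, 1.498-fold higher in the diabetic library (1.37 to 1.63). With the same label makeup in both libraries its log2 ratio was 0.45, against 0.58 as measured. Dll1 was at 11.8 and 13.9 CPM (ratio 1.18, 1.11 to 1.247) and Notch1 at 46.3 and 49.95 CPM (1.08, 1.05 to 1.11). Hes1 was at 282 and 255 CPM (0.903, 0.892 to 0.915), Notch2 at 24.3 and 21.8 CPM (0.897, 0.859 to 0.936), Jag1 at 48.0 and 44.2 CPM (0.921, 0.894 to 0.9496), and Notch3 at 54.2 and 53.1 CPM (0.980, 0.953 to 1.008). Jag2 was at 39.5 and 42.4 CPM (1.07, 1.04 to 1.11), but its log2 ratio of 0.10 turned to -0.052 with the same label makeup and to -0.074 after thinning. That of Notch3 turned from -0.029 to 0.017 with the same makeup. The shares of cells differed between the libraries: LSC cells were 2.10% and 4.04%, Wing cells 30.2% and 24.1%. The median log2 ratio of the 8 members was 0.04, against 0.07 over all measured genes, with 4 above and 4 below 0.

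Within labels, 6 of 53 member and label pairs with at least 50 UMIs passed the size rule (11.3%), against 5.37% of the 73695 gene and label pairs of all genes (2.51% higher and 2.86% lower). Pairs of 1 label share their cells, and pairs of 1 gene share the gene. Of these, 2 were higher and 4 lower in diabetic cells, all in LSC or Squam cells. In Basal, TAC1, TAC2, Wing and Conj cells no member passed. Of all measured genes, 5.01% passed in Basal cells (2.63% higher, 2.38% lower), 3.23% in TAC1 cells (1.7% higher, 1.52% lower) and 3.57% in TAC2 cells (2.21% higher, 1.35% lower). In Wing cells 6.52% passed (3.93% higher, 2.59% lower) and in Conj cells 4.47% (2.52% higher, 1.95% lower). In Immune cells no member had 50 UMIs, and 24.1% of 295 measured genes passed (10.5% higher, 13.6% lower).

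**Figure D4:**
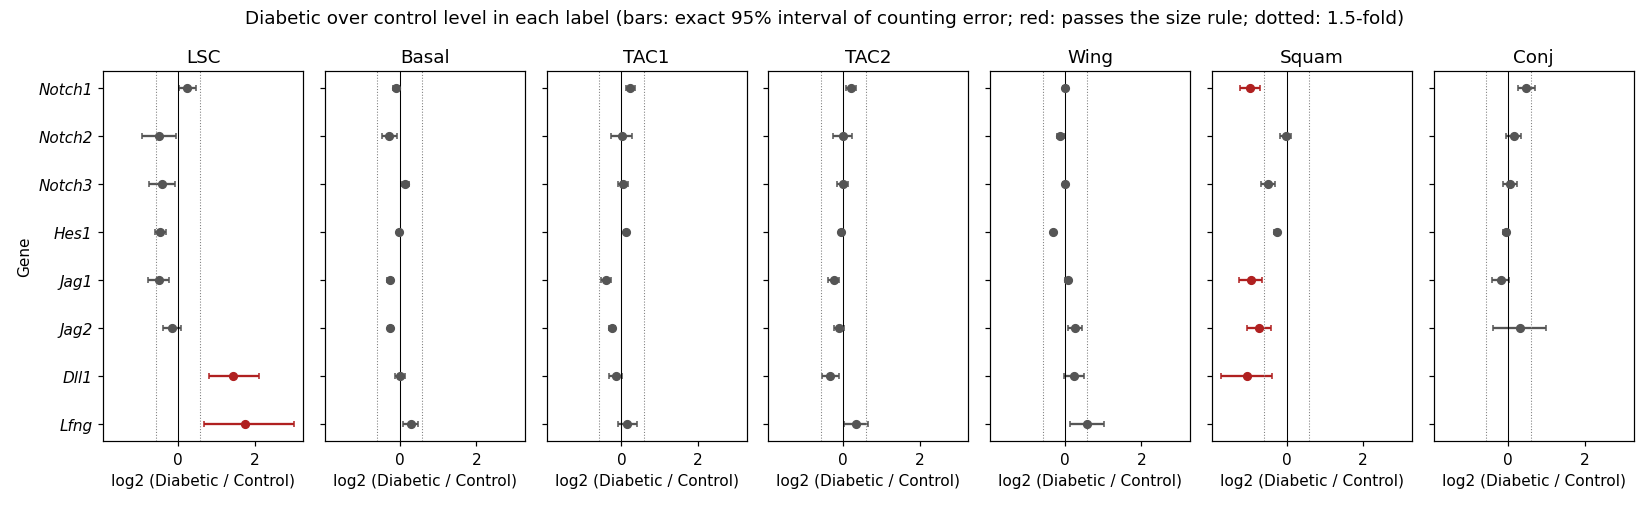
log2 ratio of the diabetic over the control level of each member within each label, with exact 95% intervals of counting error; pairs under 50 UMIs are left out. Red points pass the size rule: Dll1 and Lfng in LSC cells to the right, and Notch1, Jag1, Jag2 and Dll1 in Squam cells to the left.

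In LSC cells Dll1 and Lfng were higher in the diabetic library. Dll1 had 25 UMIs in 202 control cells (11.5 CPM, 7.43 to 16.9) and 143 UMIs in 331 diabetic cells (31.1 CPM, 26.2 to 36.6), a ratio of 2.71 (1.76 to 4.32). Lfng had 8 and 57 UMIs, 3.67 CPM (1.59 to 7.24) and 12.4 CPM (9.38 to 16.0), a ratio of 3.37 (1.60 to 8.18). These were 2 of 8 measured members, where 5.24% of 8567 measured genes passed in LSC cells, namely 2.63% higher and 2.61% lower. In the diabetic library the LSC intervals of both genes overlapped those of Basal cells, while in the control library they lay below, at 0.361 (0.232 to 0.536) and 0.306 (0.131 to 0.610) of the Basal level. Thinned to 5000 UMIs, Dll1 was found in 7 of 169 control cells (4.14%, 1.68 to 8.35) and 52 of 295 diabetic cells (17.6%, 13.5 to 22.5). The ratio of its thinned level was 5.48 (2.52 to 14.2), from 7 and 67 UMIs, a value above its unthinned interval. With every cell given equal weight the log2 ratio of Dll1 was 1.04, against 1.44 from summed counts. That of Lfng was 2.07, against 1.75. For Lfng the thinned counts were 4 and 22 cells (2.37%, 0.649 to 5.95, and 7.46%, 4.73 to 11.1), intervals that overlap, and 27 UMIs, under the minimum of the size rule.

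Other members in LSC cells did not pass. Jag2 was at 108 and 97.1 CPM (ratio 0.896, 0.764 to 1.05) and Notch1 at 112 and 133 CPM (1.18, 1.02 to 1.37). Jag1 (0.703, 0.584 to 0.846), Notch2 (0.707, 0.525 to 0.956), Hes1 (0.727, 0.658 to 0.804) and Notch3 (0.742, 0.589 to 0.939) had ratios below 1. Markers of other layers and states moved with the LSC values. The Wing list, 3 of 3 genes with UMIs, summed to 593 and 363 CPM, and the superficial list, also 3 of 3, to 185 and 108 CPM. In the superficial list Psca and Cldn23 were lower in the diabetic library, and Ndrg1 was at 15.1 and 16.5 CPM. The limbal list, 5 of 5, summed to 17431 and 13939 CPM; Krt15, Gpha2, Apoe and Cd63 were lower in the diabetic library and Ifitm3 was at 651 and 707 CPM. The basal list, 4 of 4, summed to 11341 and 10826 CPM, with Krt14 at 3016 and 3978 CPM and Krt5 at 7578 and 6069 CPM. Dcn, the 1 keratocyte marker of 5 in the matrix, was at 13.3 and 23.7 CPM from 29 and 109 UMIs. The conjunctival list, 4 of 4, summed to 1532 and 1700 CPM. Of it, Krt4 was at 655 and 816 CPM and Krt19 at 146 and 196 CPM. Krt13, at 464 and 452 CPM, and Cyp2f2, at 267 and 236 CPM, were lower in the diabetic library. The cycling list of 5 genes was at 105 and 178 CPM, with Mki67 at 5.05 and 29.5 CPM and Top2a at 5.51 and 26.9 CPM. Thinned LSC cells without a UMI of the mitotic genes Mki67, Top2a or Ube2c were 158 of 169 and 253 of 295 cells. Among them the ratio was 5.17 (2.36 to 13.4) for Dll1, from 7 and 58 UMIs. For Lfng it was 3.43 (1.17 to 13.7), from 4 and 22 UMIs. A thinned cycling cell can lack a UMI of these sparse genes, so the cells kept may include cycling cells. The part of the cycling, Wing, superficial, limbal, basal, conjunctival and keratocyte markers in the result was not tested.

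In Squam cells 4 of 7 measured members were lower in the diabetic library, where 7.75% of 10313 measured genes were lower, 1.79% higher and 9.54% either. Notch1 was at 10.5 CPM (9.47 to 11.5) and 5.40 CPM (4.603 to 6.28), 1.94-fold lower (1.61 to 2.34). Jag1 was at 8.74 CPM (7.84 to 9.72) and 4.54 CPM (3.82 to 5.37), 1.92-fold lower (1.57 to 2.36). Squam cells were the epithelial label with the lowest level of both genes in either library. Jag2 was at 6.72 and 4.05 CPM, 1.66-fold lower (1.33 to 2.07), and Dll1 at 1.87 and 0.916 CPM from 73 and 28 UMIs, 2.04-fold lower (1.31 to 3.28). Notch3 (16.8 and 12.0 CPM, ratio 0.713, 0.625 to 0.811), Hes1 (117 and 98.1 CPM, 0.838, 0.800 to 0.878) and Notch2 (23.6 and 23.2 CPM, 0.982, 0.889 to 1.08) did not pass. The median log2 ratio of the 7 was -0.73, against -0.08 over all genes measured in Squam cells, of which 6298 of 10313 had a ratio below 1.

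The Squam calls depended on depth and on the choice of cells. After thinning to 5000 UMIs none of the 4 passed: Notch1 was 1.46-fold lower (0.981 to 2.18), Jag1 1.24-fold (0.821 to 1.90), Jag2 1.19-fold (0.710 to 2.03) and Dll1 1.27-fold (0.405 to 4.35). Dll1 had 9 and 6 UMIs there, under the minimum of the size rule, so it could not pass. The thinned intervals of Notch1, Jag2 and Dll1 hold their unthinned folds, and that of Jag1 does not. Without the deepest 5% of cells Notch1, Jag1 and Jag2 still passed, and Dll1, 2.01-fold lower, did not. With every cell given equal weight the log2 ratio of Jag1 was -0.092, against -0.94 from summed counts, while that of Notch1 was -0.73, of Jag2 -0.95 and of Dll1 -1.14. Markers of the layers below moved with these values: the summed Wing list of 3 genes was at 396 and 276 CPM in Squam cells, and the basal list of 4 at 4217 and 3628 CPM with Col17a1 at 102 and 77.2 CPM. The superficial list of 3 was at 29520 and 41163 CPM, nearly all of it Psca at 28930 and 40529 CPM. Of its other genes, Ndrg1 was at 146 and 210 CPM and Cldn23 went the other way, at 445 and 423 CPM. Among thinned Squam cells without a UMI of Col17a1 or Itgb4 (1231 and 1055 cells), Notch1 was 1.52-fold lower (0.879 to 2.69) and Jag1 had a ratio of 1.01 (0.529 to 1.93). Jag2 had 12 and 8 UMIs, 1.29-fold lower (0.483 to 3.63). Dll1 had 0 and 4 UMIs there. The part of the layer markers in the result was not tested.

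Differences below 1.5-fold with Poisson intervals apart, picked after their values were seen, went both ways in other labels. The share of all measured genes with such differences was not computed. Jag1 was lower in TAC1 cells, at 58.7 CPM (55.4 to 62.1) and 44.2 CPM (41.4 to 47.2), and in Basal cells, at 69.8 (66.9 to 72.8) and 58.4 CPM (55.9 to 61.0). Its thinned shares were apart too, 25.7% (23.3 to 28.3) and 19.2% (16.8 to 21.8) of TAC1 cells. Jag2 had ratios of 0.840 (0.791 to 0.892) in TAC1 and 0.844 (0.802 to 0.887) in Basal cells. The 3 ligand genes summed to 205 CPM (198 to 211) and 169 CPM (163 to 174) in TAC1 cells and to 203 (198 to 208) and 176 CPM (172 to 180) in Basal cells. Receptor sums in the same cells were 106 CPM (101 to 110) and 115 CPM (111 to 120) in TAC1 and 127 CPM (123 to 131) and 127 CPM (123 to 131) in Basal cells. In Wing cells Hes1 was at 349 CPM (345 to 353) and 284 CPM (279 to 288), a ratio of 0.813 (0.797 to 0.830). Notch1 in Conj cells went up, from 26.1 CPM (23.2 to 29.3) to 36.1 CPM (32.7 to 39.8), and after thinning its ratio of 1.75 (1.249 to 2.48) passed the rule.

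Of 43 other genes of the pathway, 39 were in the matrix and 33 had at least 50 UMIs over all cells. They comprise the secretase subunits, the ADAM proteases, transcriptional partners, ubiquitin ligases, further ligands and further Hes and Hey genes. Only Dlk2, which encodes a Delta-like protein without the usual Notch-binding domain, passed the size rule, at 3.47 and 5.53 CPM, 1.59-fold higher (1.44 to 1.76). Beside this 1 call of 33, 8.78% of all measured genes passed and 5.98% were higher. Dlk2 was at 56.0 and 52.1 CPM in LSC cells, and LSC cells were 2.10% of control and 4.04% of diabetic cells. With the same label makeup it did not pass. Within TAC2 cells Dlk2 was at 3.11 and 7.12 CPM (2.29-fold higher, 1.60 to 3.36). Dtx4 had a ratio of 1.51 over all cells, with intervals that overlapped. The median log2 ratio of the 33 genes was 0.07, against 0.07 over all measured genes.

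Further pathway genes named here were chosen after their values were seen. Nrarp, a Notch target that dampens the pathway, was at 46.4 and 35.5 CPM over all cells (ratio 0.765, 0.741 to 0.791). Like Notch3 it was highest in Wing cells, at 79.6 and 66.6 CPM. In Squam cells it was at 9.82 and 5.26 CPM and passed the rule there (0.536, 0.443 to 0.646), as did the co-activator gene Maml2 (3.20 and 1.99 CPM) and Poglut1 (1.64 and 0.621 CPM), which encodes a glucosyltransferase of Notch. Those 3 were the only calls among 27 measured pathway genes in Squam cells, where 9.54% of all measured genes passed and 7.75% were lower. The ubiquitin ligase gene Mib1, needed in ligand-bearing cells, was at 18.7 and 22.9 CPM (1.23, 1.17 to 1.28) and Rbpj at 22.0 and 25.6 CPM (1.16, 1.11 to 1.21). The secretase subunit genes Ncstn (39.0 and 37.3 CPM) and Aph1a (63.0 and 62.9 CPM) had ratios of 0.957 (0.926 to 0.990) and 0.998 (0.973 to 1.02). Notch4 had 51 and 52 UMIs, and Dll3 64 and 59 UMIs, in whole libraries. Markers of vascular endothelium, where Notch4 is known, summed to 0.570 and 0.667 CPM over the 2 of 5 marker genes in the matrix.

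**Figure D5:**
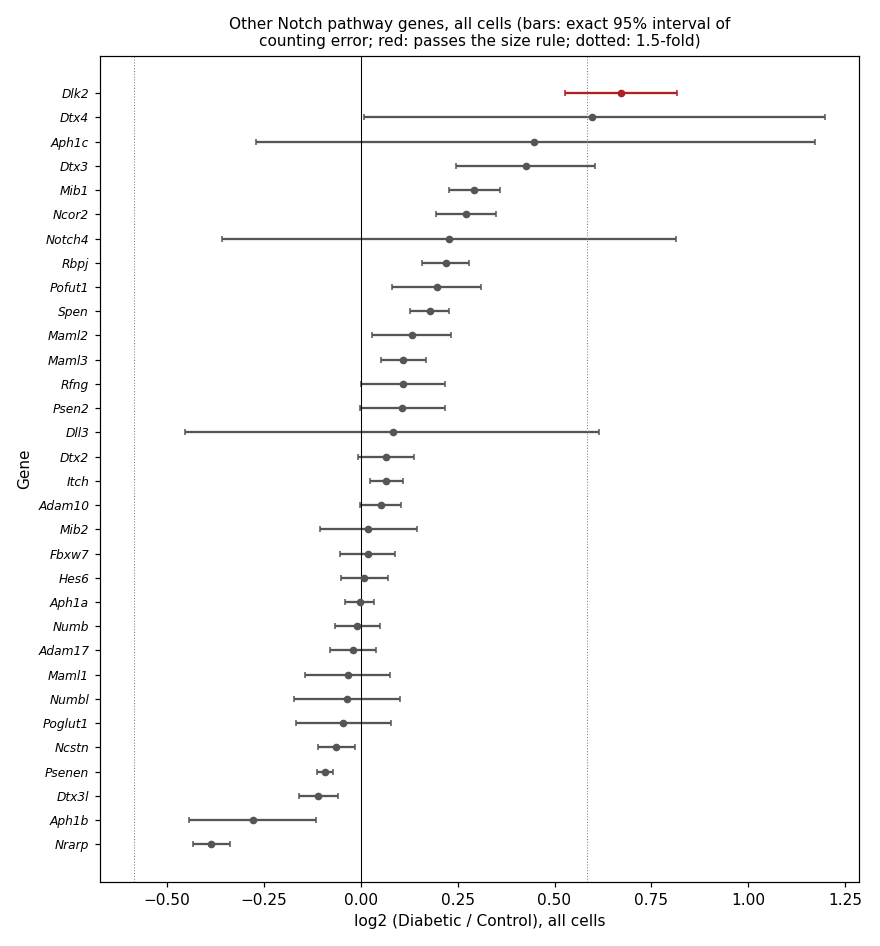
log2 ratio of the diabetic over the control level over all cells for the other pathway genes with at least 50 UMIs, 1 gene not shown, with exact 95% intervals of counting error. Dlk2 (red) lies beyond the dotted 1.5-fold line at the top, and Nrarp has the lowest ratio.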

How the data were processed

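Single-cell RNA libraries of dissociated corneal epithelium (1 per group) were analysed from the deposited matrix of whole UMI counts, not normalized, and the authors' cell table of groups and labels. The submitters' processing notes name the build mm10, Cell Ranger 5.0.0 and Seurat 4 with no step for each. How cells were filtered and labelled, doublets treated and strand used is not given in the sources used here; genes on the opposite strand overlap Notch1, Notch3 and Dll1, so shared reads cannot be told apart.

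Counts were summed per library and label. Poisson intervals, conditional binomial intervals of ratios and Clopper-Pearson intervals of shares are exact, at 95%. Shares used cells thinned to 5000 UMIs (750 shallower cells left out). No doublet caller was run; the deepest 5% of cells per label and library were left out instead as an alternative. The size rule was run on simulated Poisson counts that hold no variation between mice or libraries. That simulation therefore cannot show how far calls between single pools would repeat. Promoters came from RefSeq, where 7 of 9 members matched by symbol; gene positions came from GENCODE M21 on GRCm38. Named genes were all members, pathway genes called over all cells or in 2 labels, and per member the 3 genes most like it; other pathway genes named were chosen after their values were seen. The values of 1 pathway gene are not reported here. The members and lists were chosen with earlier results of these data known. Scripts used scipy 1.17.1 for intervals, pandas 2.3.3 and numpy 2.4.6 for tables and matplotlib 3.10.9 for plots, under Python 3.11.15.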

Additional observations from a re-analysis of the deposited data

Results flagged for a closer look

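Dll1 moved in opposite directions in 2 labels: its log2 ratio of diabetic over control was 1.44 in LSC cells and -1.03 in Squam cells, and both passed the size rule. With 1 library per group the difference between the labels was not tested.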

How the results depend on the processing

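The count of members called over all cells stayed at 0 under other scaling, cell filters, thinning and label makeup, and was 1 (Lfng) with the lower of the fold limits tried. Other count minimums could not change it. Hey1 had 4 UMIs, and every other member had at least 913 in each library. Pathway genes called went from 1 to 3 with that lower fold limit and to 0 after thinning and with the same label makeup. Called member and label pairs went from 6 to 3 with a minimum of 200 UMIs, to 12 with the lower fold limit and to 2 after thinning, of which 1 was among the 6. Without the deepest 5% of cells 6 pairs were called, 5 of them shared. Of 63 member and label pairs, those whose shares of cells had intervals apart went from 5 at 5000 UMIs to 3 at 3000 and 14 at 10000. The matching counts over all genes were not computed for these other settings or for the shares of cells. The share of cells with both a receptor and a ligand UMI went from 18.8% to 35.8% in control and from 18.6% to 36.4% in diabetic cells at 10000 UMIs, where more molecules per cell are kept. Among alternatives chosen after seeing the data, the log2 ratio of Jag1 in Squam cells turned to 0.021 in thinned cells without a basal marker UMI; the cause was not tested. Of the alternative log2 ratios, 44 of 48 over all cells and 34 of 35 for the called pairs kept their direction. Some of the 35 could not have turned, so the count is no measure of how firm the calls are. Dll1 in thinned Squam cells without a basal marker UMI had 0 control and 4 diabetic UMIs. It gave no ratio and is not among the 35. Leaving out cells over 10% mitochondrial did not change the UMI counts of the called Squam pairs, so that setting could not turn them. Scaling by the median ratio of genes between the libraries shifted log2 ratios by 0.082 in Squam and -0.0088 in LSC cells. That was too little to turn a called pair. No paired analysis was possible because each group is 1 library. Few UMIs limit, among others, Hey1, Lfng in LSC cells and Dll1 in Squam and Conj cells.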
